A study of Mus musculus with 20 samples.

Results

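CD122-T-bet- precursors are the sorted population of thymic intraepithelial lymphocyte precursors (IELPs) that carried neither CD122 nor the T-bet reporter on the day of the sort. They were taken here as the wells that the well list of the study assigns to the CD122-T-bet- gate of the TBGR mouse and that held at least 2000 transcripts of nuclear genes, spike-ins and mitochondrial genes left out. The gate filled 96 wells in each of 2 libraries, and 87 wells of each (90.6%) met this minimum, 174 cells among 678 cells of the TBGR mouse and 1413 cells in the whole series. The passing cells nearest to the minimum held 2414 transcripts in library 1 and 2203 in library 2, and the fullest wells below it held 1436 and 1996.

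The study sorted single IELPs from the thymus into plates and sequenced their mRNA by CEL-Seq2, a method that counts the 3' ends of transcripts with molecular identifiers of 6 bases. All cells used below came from mice of the TBGR strain, whose ZsGreen reporter follows T-bet, so that T-bet in the names of the gates stands for reporter fluorescence and not for the protein. The TBGR mouse was labelled wild type and was 4 weeks old, and it gave 4 sorted populations in 2 libraries of 96 wells each: the CD122-T-bet- cells and, all bearing CD122, cells without the reporter (CD122+T-bet-), here CD122 single positive cells, with intermediate and with high reporter signal, called T-bet int cells and T-bet high cells here. A mouse of 2 weeks with the genotype C-myc fl/fl, for which the labels list no Cre, gave both reporter-negative populations side by side in 4 libraries and serves as a separate look at the same contrast. Thymocytes bearing CD4 or CD8 had been removed from all of these samples with antibodies and beads, and the sort was for CD4-CD8-TCRb+ cells. The series text gives them as NK1.1+ and the paper as NK1.1-. There was 1 mouse per genotype, so libraries repeat the sort and the chemistry but not the animal, and no test between populations was made.

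IELPs arise from thymocytes whose T cell receptor binds self ligands strongly, a fate called agonist selection. Selected cells lower both co-receptors, take up CD122, the beta chain of the receptors for IL-2 and IL-15, and later switch on T-bet, a transcription factor that drives cytotoxic and natural killer (NK) genes. They then leave the thymus for the gut epithelium, and cells without CD122 and T-bet are placed at the start of this path.

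The 174 CD122-T-bet- cells held 980381 transcripts, 483756 in library 1 and 496625 in library 2, with a median of 5106 and 5130 per cell. The median was 7076 and 7073.5 in CD122 single positive cells, 6405 and 6334 in T-bet int cells, and 4835 and 3805 in T-bet high cells. No cell barcode was shared by the libraries of any population. Library 2 of T-bet high cells stood apart from the other 7 TBGR libraries. Only 55 of its 96 wells passed, against 84 to 94 elsewhere, and its barcodes without a cell held 11858 transcripts, against 1567 to 3864. Numbers of genes past the fold that rest on it, and the list median whose sign it changed, are given with and without it. The list counts that it changed are given without it here or among the results flagged for a closer look.

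Gm10800, a predicted gene of repeat-like sequence that the authors set aside with its correlated genes before clustering, made up 21.3% and 29.4% of all transcripts in the CD122-T-bet- libraries. It made up 12.04% and 13.8% in CD122 single positive cells, 8.42% and 7.17% in T-bet int cells, and 7.03% and 14.1% in T-bet high cells. Both CD122-T-bet- libraries lay above the other 6. Its share of single CD122-T-bet- cells ran from 3.25% to 63.9%, and 68 of the 174 had over 25%, against 20, 5 and 11 cells of the other populations in the order above. The 20 genes that correlated with it, or with the other genes the authors treated in this way, are called low-quality genes below and together made up 31.6% of CD122-T-bet- transcripts, against 15.8%, 9.60% and 12.1%. Ribosomal protein genes made up 8.40% and 7.26% in CD122-T-bet- cells, below the other libraries, which ranged from 11.1% to 15.7%. A large share of 1 gene lowers the share of every other gene, so ratios below are centred on the median gene of each comparison, and counts are also given without the cells that had over 25%.

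**Figure D1:**
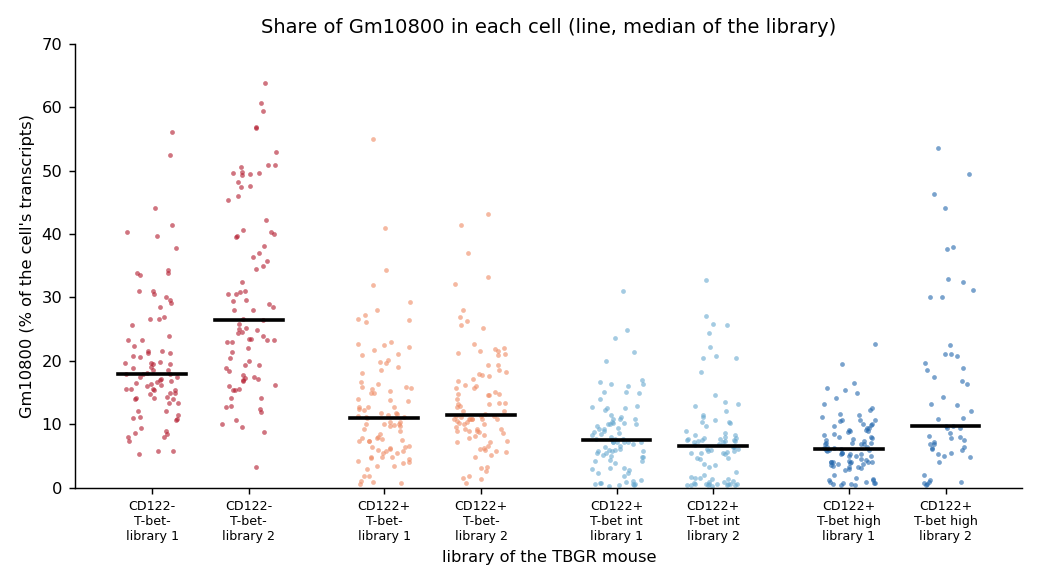
Share of Gm10800 among the transcripts of each cell (vertical axis, percent) in the 8 TBGR libraries (horizontal axis). Each point is a cell and each line the median of its library, which was 17.9% and 26.5% for the CD122-T-bet- libraries, above the other 6.

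The genes of CD122, T-bet and the receptor beta chain matched the label, whereas Cd4 was abundant in cells sorted as CD4-, as given below. Il2rb, which encodes CD122, gave 7 transcripts in 5 of the 174 CD122-T-bet- cells, or 12.4 and 2.01 transcripts per 1000000 (CPM) in libraries 1 and 2, against 289 and 247 CPM in CD122 single positive cells, 355 and 443 in T-bet int cells and 554 and 437 in T-bet high cells. Tbx21, which encodes T-bet, and Klrb1c, which encodes NK1.1, gave 0 transcripts, where the floor of 3 transcripts stands at 3.06 CPM. These genes were selected on through their proteins or reporter and their low levels are no finding. Trbc1, a constant region of the receptor beta chain, was seen in all 174 cells with 4647 and 4647 CPM; its near copy Trbc2 is absent from the tables, so its count is uncertain.

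The 6 genes that mark the population were abundant in it. Ccr9, the receptor for the chemokine CCL25 of thymus and small intestine, stood at 1203 and 1496 CPM in the CD122-T-bet- libraries, 95.5 and 46.1 in CD122 single positive cells, 53.0 and 37.9 in T-bet int cells and 4.24 and 17.1 in T-bet high cells. Satb1, a chromatin organiser needed for thymocyte development, stood at 2911 and 2241, 405 and 405, 389 and 419 and 709 and 707 CPM in the same order. For both genes the lower CD122-T-bet- library lay above all 6 others, with centred log2 ratios to CD122 single positive cells of 4.56 (95% interval 4.28 to 4.86) for Ccr9 and a ratio of 8.02-fold for Satb1. Intervals here and below cover counting error only.

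Itm2a, a membrane protein induced in thymocytes during positive selection, gave 1294 and 906 CPM in the CD122-T-bet- libraries and 111 and 136, 83.3 and 41.1 and 104 and 90.0 in the others. Bcl11b, the zinc finger factor of T lineage commitment, gave 1023 and 769 CPM against 276 and 254, 127 and 136 and 327 and 257. Neither gene overlapped between CD122-T-bet- and any other population. The ratios to CD122 single positive cells were 3.50 (95% interval 3.27 to 3.74) and 2.09 (95% interval 1.92 to 2.27) on the centred log2 scale.

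Cd4, the co-receptor of cells restricted by MHC class II, gave 680.1 and 493 CPM in the CD122-T-bet- libraries and 63.2 and 56.2, 18.2 and 19.0 and 27.6 and 8.57 in the others, a log2 ratio of 3.62 (95% interval 3.30 to 3.97) to CD122 single positive cells. A Cd4 transcript was found in 164 of the 174 cells although bead depletion and sort had selected against CD4; those steps read surface protein and the counts read mRNA. After thinning to 2000 transcripts per cell, Cd4 was still seen in 66.7% of CD122-T-bet- cells, against 11.3%, 5.26% and 2.72% of the other populations. Cd8a and Cd8b1, which encode the chains of CD8, gave 27 and 54 transcripts in 18 and 33 cells.

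Nr4a1 encodes Nur77, a nuclear receptor induced by T cell receptor signals. It stood at 449 and 451 CPM in the CD122-T-bet- libraries, 258 and 399 in CD122 single positive cells, 97.0 and 133 in T-bet int cells and 19.1 and 4.28 in T-bet high cells. Both CD122-T-bet- libraries lay above all others, but the ratio to CD122 single positive cells of 0.81 did not reach 2-fold. It passed 2-fold against T-bet int cells, at 2.46, and against T-bet high cells, at 5.09. Every CD122-T-bet- cell held at least 2 of the 6 marker genes, 139 held at least 5 and 72 held all 6.

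**Figure D2:**
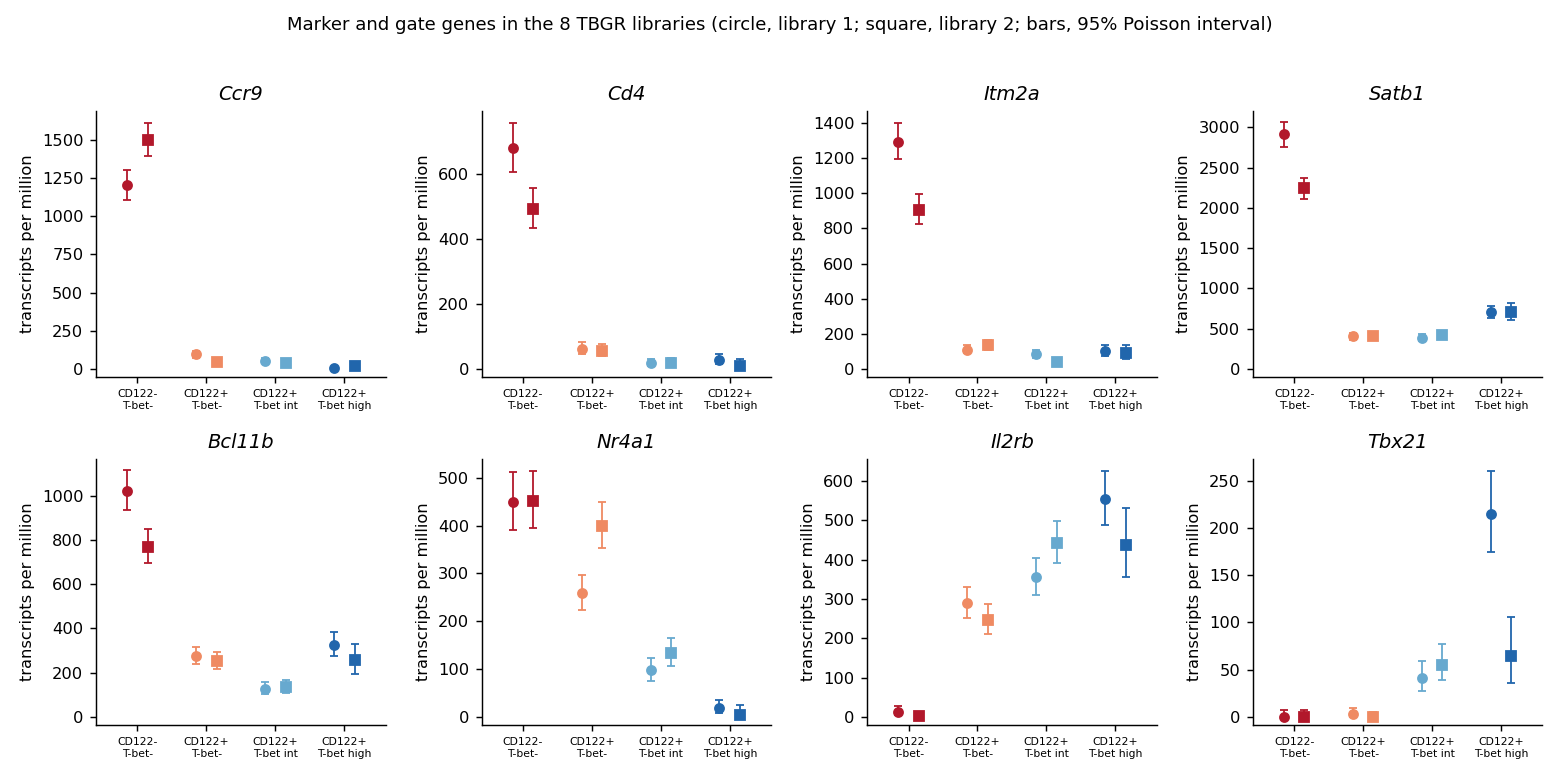
Level of 6 marker genes and 2 gate genes (vertical axes, CPM) in the 4 sorted populations of the TBGR mouse (horizontal axes). Circles are library 1, squares library 2 and bars the exact 95% Poisson interval of the count. In the CD122-T-bet- libraries Ccr9, Cd4, Itm2a, Satb1 and Bcl11b stand clear of the other 6 libraries, Nr4a1 lies close to CD122 single positive cells, and Il2rb and Tbx21 lie at or near 0.

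Promoter sequence shows what lies around the starts of the marker genes that were higher than in each other population. RefSeq windows of 300 bases around the gene start (GRCm38.p6) were listed for 5 of the 6 markers, and the 4 below are printed 5' to 3' along the gene. Each is in lower case, with capitals for a match to a motif searched. Ccr9 is at chr9:123766961-123767260 (+ strand), Itm2a at chrX:107403311-107403610 (- strand), Satb1 at chr17:51833241-51833540 (- strand, the first of 5 windows listed) and Bcl11b at chr12:108003365-108003664 (- strand).
Ccr9: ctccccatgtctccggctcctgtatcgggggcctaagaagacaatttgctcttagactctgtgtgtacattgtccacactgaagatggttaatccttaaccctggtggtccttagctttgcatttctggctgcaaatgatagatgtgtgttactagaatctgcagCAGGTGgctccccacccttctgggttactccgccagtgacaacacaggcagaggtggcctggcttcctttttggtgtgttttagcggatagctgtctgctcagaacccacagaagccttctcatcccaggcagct
Itm2a: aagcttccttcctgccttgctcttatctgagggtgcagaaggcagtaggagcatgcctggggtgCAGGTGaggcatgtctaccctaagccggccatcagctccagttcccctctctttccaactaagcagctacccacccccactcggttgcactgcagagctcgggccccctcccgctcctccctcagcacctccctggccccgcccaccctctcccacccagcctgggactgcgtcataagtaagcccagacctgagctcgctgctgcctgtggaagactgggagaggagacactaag
Satb1: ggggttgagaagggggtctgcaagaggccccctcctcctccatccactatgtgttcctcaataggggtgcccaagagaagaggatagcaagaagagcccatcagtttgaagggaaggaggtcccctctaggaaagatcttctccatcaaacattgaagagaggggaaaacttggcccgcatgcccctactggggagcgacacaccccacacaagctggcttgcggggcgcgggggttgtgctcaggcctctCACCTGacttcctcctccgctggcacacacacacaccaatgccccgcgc
Bcl11b: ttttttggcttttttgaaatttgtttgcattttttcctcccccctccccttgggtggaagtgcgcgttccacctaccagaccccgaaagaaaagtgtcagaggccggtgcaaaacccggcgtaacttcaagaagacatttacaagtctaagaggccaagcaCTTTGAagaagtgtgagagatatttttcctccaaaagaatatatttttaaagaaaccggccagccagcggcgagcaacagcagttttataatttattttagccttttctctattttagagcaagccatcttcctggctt

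The capitals in the Ccr9, Itm2a and Satb1 windows mark CACCTG, the E-box bound by E proteins, on either strand, and those in the Bcl11b window mark CTTTGA, the core bound by TCF-1 and LEF-1. Also searched on both strands were TGTGGT for RUNX factors and AAAGGTCA for NR4A factors. Neither of these last motifs was in the 4 windows. CACCTG was found in 20.2% of all 32851 windows, CTTTGA in 16.0%, TGTGGT in 16.8% and AAAGGTCA in 1.51%. Of the 64 genes that were higher in CD122-T-bet- cells than in each other population, 33 had 53 windows, of which 22.6%, 15.1%, 7.55% and 1.89% held these motifs in the same order. Of the 38 genes lower than in each, 28 had 37 windows, of which 10.8%, 10.8%, 32.4% and 0% did. These are matches of letters and not known sites.

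Markers of other cells were looked for in the CD122-T-bet- libraries. At least 1 transcript of a gamma delta gene was in 96 of the 174 cells, of a double positive gene in 87, of a regulatory T cell gene in 80 and of a myeloid or dendritic gene in 65, many of these genes being shared with other T cells. The 9 genes of double positive thymocytes summed to 155 and 234 CPM, against 125 and 125 in CD122 single positive cells, with Cd8b1 the most abundant; Rag1 and Rag2, the recombinase of developing lymphocytes, gave 1 transcript each, and Dntt, the terminal transferase, 35 in 15 cells. Gamma delta T cell genes summed to 314 and 801 CPM, against 962 and 802, led by Tcrg-C1, whose constant region resembles others of its locus so that its count is uncertain, with Trdc in 26 cells and Tcrg-C2, Trdv4 and Trgv2 at 0 or absent. Regulatory T cell genes summed to 232 and 131 CPM, against 134 and 317, and their defining gene Foxp3 gave 17 transcripts in 9 cells.

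NKT cell genes summed to 147 and 96.7 CPM in CD122-T-bet- cells, led by Slamf6, with Zbtb16 in 4 cells and Klrb1c at 0. B cell genes summed to 80.6 and 119 CPM, of which Ighm gave 97 of 98 transcripts, with Cd79a, Ms4a1 and Igkc at 0 or absent. Myeloid and dendritic genes summed to 91.0 and 266 CPM, led by Cst3, with Lyz2 and Itgax at 0. H2-Aa gave 37 transcripts in 5 cells, Cd74 36 in 14, Csf1r 19 in 5, H2-Ab1 15 in 2 and Tyrobp 2 in 2. Thymic epithelium genes gave 14 transcripts, 12 of them Ccl25, with Krt5 and Krt8 at 0 or absent, and red cell genes gave 0. CD4 lineage genes summed to 1521 and 1176 CPM, led by Cd4, and CD8 lineage genes to 99.2 and 195 CPM, led by Cd8b1. The 9 genes of mature T-bet+ IELPs summed to 184 and 159 CPM, against 8255 and 6185 in T-bet high cells; Id2 gave 159 of the 168 transcripts, and Tbx21, Gzmb, Klrb1c and Klrd1 were at 0. The part of these cells in the differences below was not tested.

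By gate the nearest cells are the CD122 single positive ones, which differ by CD122 alone. CD122-T-bet- cells were higher for T lineage genes such as Bcl11b and Tcf7 and the homing receptors Ccr9 and Ccr7 and lower for genes such as Mki67 and Klrb1a. A gene was called past the fold when its centred ratio reached 2-fold and no library of 1 population overlapped the other. Of 2651 genes with at least 100 transcripts in either population, 283 (10.7%) were past the fold, 121 (4.56%) higher in CD122-T-bet- cells and 162 (6.11%) lower. Of the 121, 42 were predicted or clone-named genes and 18 were among the 20 low-quality genes. The median gene stood at -0.34 before centring, which is the shift that the ratios are relative to.

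Ccr7, the receptor that draws thymocytes to the medulla, stood at 291 and 143 CPM in CD122-T-bet- and 72.2 and 31.7 in CD122 single positive cells, 5.13-fold higher. Zbtb7b, which encodes ThPOK, the factor of the CD4 lineage, gave 141 and 94.6 against 14.2 and 10.1 CPM, 11.8-fold higher. It did not pass the fold against T-bet high cells, which gave 66 transcripts of Zbtb7b. The adhesion gene Chl1 gave 134 and 92.6 against 14.2 and 8.65 CPM. All 3 were higher in both CD122-T-bet- libraries than in either CD122 single positive library, and Chl1 and Zbtb7b are carried by few transcripts (111 and 115 in all). Gzma, a granzyme, had the largest ratio, 5.32 (95% interval 4.34 to 6.76), but its CD122-T-bet- libraries were far apart at 33.1 and 286 CPM, against 7.74 and 1.44.

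On the lower side, Cd7, a surface protein of T and NK cells, gave 22.7 and 6.04 CPM against 293 and 469.9, 20.2-fold lower. Mki67, a protein of dividing cells, gave 14.5 and 6.04 against 353 and 259 CPM, 22.9-fold lower. Coro2a, a coronin of the actin cytoskeleton, gave 10.3 and 14.1 against 199 and 271 CPM, 14.5-fold lower. In each case the higher CD122-T-bet- library lay well below both CD122 single positive libraries.

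The mitotic genes Ccnb2, Cdk1 and Cenpe gave 1, 3 and 1 transcripts in CD122-T-bet- cells against 102, 102 and 159, with log2 ratios of -5.17 (95% interval -11.07 to -3.24), -3.95 (95% interval -6.47 to -2.58) and -5.81 (95% interval -11.70 to -3.89). Klrb1a, of the NK1.1 receptor family, and the adhesion receptor gene Amica1 gave 0 transcripts and were at least 31.5-fold and 19.2-fold lower by the floor of 3 transcripts over the population. Klra1, an NK receptor gene with near-identical relatives, gave 1 transcript against 119, a log2 ratio of -5.39 (95% interval -11.29 to -3.47). These genes were close to absent in CD122-T-bet- cells at this depth.

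**Figure D3:**
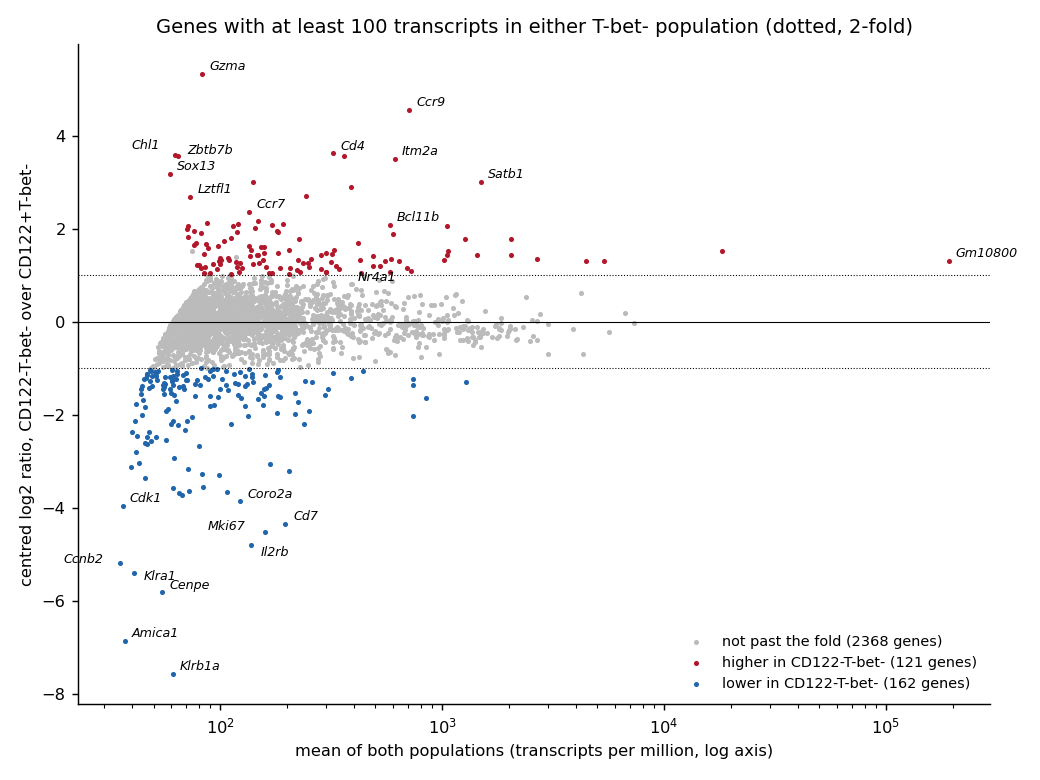
Centred log2 ratio of CD122-T-bet- over CD122 single positive cells (vertical axis) against the mean level of both populations (horizontal axis, CPM, log scale) for 2651 genes. Red points are the 121 genes higher and blue points the 162 genes lower in CD122-T-bet- cells, the dotted lines mark 2-fold, and the named genes are the largest in each direction with Bcl11b, Nr4a1 and Gm10800; genes at 0 are drawn with 0.5 transcripts added.

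Centring, single libraries and the Gm10800-rich cells bear on these counts. Without centring 69 genes were higher and 294 lower, and with cells over 25% Gm10800 left out 59 were higher and 150 lower, 53 and 135 of them shared. Leaving out CD122-T-bet- library 2 gave 80 higher of 2618 tested, and leaving out library 1 or 2 of CD122 single positive cells gave 76 lower of 1460 or 88 of 1551, so that the number tested changed as well. The 6 markers had log2 ratios of 4.48 (Ccr9), 3.83 (Cd4), 3.37 (Itm2a), 2.86 (Satb1), 2.06 (Bcl11b) and 0.89 (Nr4a1) without those cells.

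Against T-bet int cells, which have begun to express the reporter, the same marker genes were higher in CD122-T-bet- cells and dividing-cell and NK genes such as Birc5 and Klrd1 were lower. Of 2436 genes tested, 427 (17.5%) were past the fold, 223 (9.15%) higher in CD122-T-bet- cells and 204 (8.37%) lower, around a median gene at -0.49. Ccr9 was 41.1-fold, Cd4 43.3-fold and Itm2a 24.4-fold higher. Nr4a3, a relative of Nr4a1, gave 118 and 115 CPM against 6.06 and 9.49, 20.1-fold higher. Dusp10, a phosphatase of stress kinases, gave 97.2 and 133 against 7.58 and 9.49 CPM, 18.2-fold higher. For both genes every CD122-T-bet- library exceeded every T-bet int library.

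The chemokine gene Ccl5 gave 1 transcript in CD122-T-bet- cells against 441 in T-bet int cells, or -7.32 (95% interval -13.21 to -5.41) on the log2 scale. Klrd1, which encodes the NK receptor chain CD94, was at 0 against 330.3 and 309.9 CPM, at least 74.7-fold lower, and the mitotic genes Birc5 and Tpx2 at 0 were at least 27.6-fold and 21.3-fold lower. Klra7, of the same family as Klra1, was at least 30.7-fold lower. None of these genes gave more than 1 transcript in the CD122-T-bet- libraries. Without centring 132 genes were higher and 497 lower, and without the Gm10800-rich cells 142 and 207.

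Against T-bet high cells, the gate with the strongest reporter signal, CD122-T-bet- cells were higher for Tcf7 and Lef1 and lower for most cytotoxic genes tested. Of 1549 genes tested, 362 (23.4%) were past the fold, 146 (9.43%) higher in CD122-T-bet- cells and 216 (13.9%) lower, around a median gene at -0.17. Sox4, a transcription factor of immature thymocytes, gave 380.4 and 364 CPM against 0 and 4.28, from a total of 1 transcript in the latter and a log2 ratio of 7.62 (95% interval 5.72 to 13.51). Ccr7 gave 2 transcripts in T-bet high cells, a log2 ratio of 6.10 (95% interval 4.55 to 9.48), and Nrgn, which encodes a calmodulin-binding protein, 2, a ratio of 6.88 (95% interval 5.33 to 10.25). Emb, which encodes the membrane protein embigin, gave 229 and 177 CPM against 0, at least 53.6-fold higher. All 4 genes stood higher in each CD122-T-bet- library than in either T-bet high library, but only Ccr7 was also higher than in CD122 single positive cells. Nrgn was lower than in those, with 254 and 114 transcripts over all wells of the CD122-T-bet- libraries against 878 and 748. Sox4 and Emb did not pass the fold against CD122 single positive cells.

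Gzmb, the cytotoxic protease granzyme B, was at 0 in CD122-T-bet- cells against 1063 and 767 CPM, at least 281-fold lower. The NK receptor genes Klrd1, Klrc1 and Klrc2 were at 0 and at least 163-fold, 99.9-fold and 89.9-fold lower, and Cxcr3, a chemokine receptor under T-bet, at least 80.0-fold. Adgrg5 and Klre1, also at 0, were at least 50.8-fold and 53.6-fold lower. Ly6c2, a surface marker with a near-identical relative in Ly6c1, gave 3 transcripts against 1350, a log2 ratio of -8.90 (95% interval -11.40 to -7.57). These 8 genes were thus at or near 0 in both CD122-T-bet- libraries, whereas Gzma stood at 33.1 and 286 CPM and Ctsw, a cathepsin of cytotoxic cells, at 51.7 and 48.3. Leaving out the T-bet high library that stood apart gave 163 genes higher and 179 lower, of which 136 and 159 were shared. Leaving out the other T-bet high library gave 153 and 151, of which 98 and 89 were shared. Leaving out CD122-T-bet- library 1 gave 106 and 158 (64 and 157 shared), and library 2 gave 106 and 169 (70 and 168 shared). The number of genes tested changed as well. Leaving out the Gm10800-rich cells gave 117 and 173.

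In all 3 comparisons 1479 genes were tested. CD122-T-bet- cells were higher than each other population for 64 of them (4.33%) and lower for 38 (2.57%); the comparisons share the CD122-T-bet- cells. Of the 64, 25 were predicted or clone-named genes and 13 were low-quality genes, and the 39 genes with other names included 5 of the 6 markers with Ccr7, Chl1, Sox13, Lztfl1, Als2cl and Dusp10. Als2cl gave 163 and 54.4 CPM against 36.1 and 31.7, 6.06 and 11.1 and 19.1 and 8.57 in the other populations. Without the Gm10800-rich cells 31 genes were higher than each, 29 of them shared, and 37 lower, 35 of them shared. Chl1, Sox13, Lztfl1, Als2cl and Dusp10 then lost their calls, though the ratios stayed about as large. To CD122 single positive cells they were 3.64, 3.41, 2.71, 1.81 and 1.83, against 3.59, 3.17, 2.68, 2.00 and 1.95 with those cells. Als2cl also lost its calls without the low-quality genes.

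Among the 38 lower genes were Cd7, Coro2a and Il2rb. Neurl3, which encodes a ubiquitin ligase, gave 6.20 and 10.1 CPM in CD122-T-bet- cells against 123 and 151, 153 and 232 and 197 and 167 in the others. Ahnak, a large scaffold protein, gave 8.27 and 16.1 against 85.1 and 95.1, 292 and 346 and 677 and 617 CPM. Fcer1g, a signalling adaptor of innate receptors, gave 4.13 and 8.05 against 89.0 and 82.2, 318 and 315 and 250.3 and 119.9. All 3 lay below every other library in both CD122-T-bet- libraries. Chn2, a regulator of Rac, Nkg7, a protein of cytotoxic granules, and S100a4, a calcium-binding protein, gave 10, 11 and 11 transcripts, the Nkg7 transcripts all in library 2. Without the T-bet high library that stood apart 77 genes were higher than each and 25 lower, and without the other T-bet high library 15 were lower. Leaving out library 1 of CD122 single positive cells gave 22 lower, and leaving out CD122-T-bet- library 2 gave 39 higher. In these the genes tested also changed, from 1479 to 1398, 1359, 1391 and 1049.

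Genes on both sides of the comparison lie in the same stretch of chromosome 9. Ccr9 spans chr9:123678439-123784330 (+ strand) in the GENCODE models of GRCm38, and Lztfl1, a regulator of ciliary trafficking, lies inside that span on the opposite strand at chr9:123694416-123717697. Lztfl1 gave 124 and 121 CPM in CD122-T-bet- cells against 23.2 and 24.5, 34.8 and 14.2 and 21.2 and 4.28, higher than each, as Ccr9 was. The RefSeq window at the start of Ccr9 printed above lies outside Lztfl1. It lies within the GENCODE span of Ccr9 and not at its start, so RefSeq and GENCODE place the gene start differently. Whether reads of this overlapping pair were counted for each other was not tested. Cxcr6, a chemokine receptor of tissue-homing lymphocytes at chr9:123806475-123811760, gave 20.7 and 0 CPM against 68.4 and 70.6, 195 and 150.2 and 566 and 467, lower than each. Fyco1, at chr9:123789500-123851899 on the other strand, spans Cxcr6.

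Gene lists group the differences by role, each read beside a median of 0 for all genes tested. Counts of members past the fold are read beside the share of all genes tested. That share was 4.56% higher and 6.11% lower than in CD122 single positive cells. It was 9.15% and 8.37% against T-bet int cells, and 9.43% and 13.9% against T-bet high cells. A member could be tested on its transcripts in 1 population alone, which leaves out members low in both and puts most others on the side of that population. T lineage factors, 20 genes, had 6 of 15 tested higher and 0 lower than in CD122 single positive cells, with a median log2 ratio of 0.88. They had 8 higher and 2 lower of 14 against T-bet int cells (1.30), and 6 higher and 1 lower of 12 against T-bet high cells (1.28), 6 of the 12 tested on CD122-T-bet- transcripts alone. Tcf7, which encodes TCF-1, gave 859.9 and 942 CPM in CD122-T-bet- cells against 495 and 585, 561 and 504 and 50.9 and 94.2. Lef1, its relative, gave 668 and 463 against 290.2 and 278, 297 and 234 and 89.1 and 119.9 CPM. Both were past the fold in all 3 comparisons, but without centring Tcf7 fell to 0.75 and 0.76 against the first 2 populations and Lef1 to 0.99 against the first, short of 2-fold. Gata3, a factor of the CD4 lineage, stood at 312 and 279.9 CPM and was higher than in CD122 single positive and T-bet int cells (without centring 0.98 and 0.87), while Runx3, a factor of the CD8 lineage, stood at 37.2 and 70.5 and was lower than in both populations with reporter signal.

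Most CD3 and signalling adaptors did not pass the fold. Of 19 tested, 5 were higher and 1 lower than in CD122 single positive cells (median 0.53, and 0.20 without centring), 8 and 0 than in T-bet int cells (0.79, and 0.30), and 3 and 3 than in T-bet high cells (0.10, and -0.07). Cd247, which encodes CD3 zeta, gave 223 and 211 CPM in CD122-T-bet- cells against 109.6 and 86.5, 69.7 and 111 and 74.3 and 72.8, and Cd2, an adhesion receptor, 839 and 616 against 356 and 392, 198 and 277 and 308 and 236. Both were higher than in each other population, Cd2 at 0.96 without centring against CD122 single positive cells. Lat, the adaptor downstream of the receptor, was 2.47-fold and 4.18-fold higher than in CD122 single positive and T-bet int cells, the former 0.97 on the log2 scale without centring. Cd3e, Cd3d and Cd3g did not pass the fold in any comparison, with log2 ratios to CD122 single positive cells of 0.15, 0.14 and 0.37.

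Genes of the T cell receptor response divided. Against CD122 single positive cells 6 of 18 tested were higher (Nr4a3, Cd5, Cd6, Itm2a, Nfkbid, Cd28) and 6 lower (Nr4a2, Egr2, Ikzf2, Pdcd1, Tnfrsf9, Id3), with a median of 0.22 that became -0.12 without centring, where Cd28 stood at 0.86. Cd5, a brake on receptor signals that follows their strength, gave 366 and 294 CPM against 126.4 and 115.3, 56.1 and 72.7 and 80.6 and 72.8 in the others. Ikzf2, which encodes Helios, gave 254 and 427 against 1232 and 1469 CPM in CD122 single positive cells, 3.11-fold lower, and Pdcd1, which encodes PD-1, 80.6 and 50.3 against 245 and 254, a log2 ratio of -1.59. The 2 groups of genes therefore stood on opposite sides of the same pair of populations. Against T-bet int cells 8 of 16 were higher and 1 lower (median 1.11), and against T-bet high cells 9 of 14 higher and 0 lower (1.67), where 11 of the 14 were tested on CD122-T-bet- transcripts alone.

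Of the homing genes, Ccr9 and Ccr7 were higher than in each other population. Klf2, the factor that drives thymic exit, gave 59.9 and 60.4 CPM against 166 and 236, 350.0 and 343 and 153 and 214, lower than each. Itgae, the integrin that holds lymphocytes in epithelium, gave 12.4 and 6.04 CPM in CD122-T-bet- cells against 95.5 and 104 and 352 and 296 in the T-bet+ gates. Of the tested members 3 of 10 were higher and 2 lower than in CD122 single positive cells (median -0.18), 2 and 5 of 11 than in T-bet int cells (-0.92), and 4 and 6 of 10 than in T-bet high cells (-1.47). In the last comparison each of the 10 reached 100 transcripts in 1 population alone, so these counts mirror where each was tested.

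Cell cycle genes were lower than in 2 of the 3 other populations. With no minimum of transcripts (chosen after seeing the data), members counted had both CD122-T-bet- libraries below both of the other population after centring. These were 22 and 24 of the 24 against CD122 single positive and T-bet int cells, and 3 against T-bet high cells. Of all genes with a transcript 16.7%, 14.9% and 14.8% did so, and of all genes tested 26.3%, 32.8% and 33.0%. None was higher and 14 of 18 tested were lower than in CD122 single positive cells (median -1.46), and 0 and 18 of 22 in the comparison with T-bet int cells (-2.70). Of the tested members 14 and 18 reached 100 transcripts in the other population alone, so these medians leave out genes low in both. Top2a, the topoisomerase of dividing cells, gave 43.4 and 14.1 CPM in CD122-T-bet- cells against 352 and 257 and 608 and 604. Mcm6, of the replicative helicase, gave 86.8 and 64.4 against 308 and 269.6 and 332 and 258. Both were lower in each CD122-T-bet- library, by 8.37-fold and 3.02-fold to CD122 single positive cells. Against T-bet high cells 1 of 6 was higher and 1 lower (-0.23), and without the library that stood apart 1 and 0 of 4 (0.73), so the sign rests on that library. In T-bet high cells Top2a stood at 2.12 and 103 CPM. Myc, which drives growth and division, gave 12.4 and 14.1 CPM in CD122-T-bet- cells against 46.4 and 62.0, 69.7 and 66.4 and 50.9 and 30.0, under the 100 transcripts that a test needed. Of the 2 genes of the Myc network tested 0, 1 and 0 were higher, Mxd4 being the 1, and 0 lower.

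Most cytotoxic and NK receptor genes were lower. The same count with no minimum of transcripts was also chosen after seeing the data. In it 11, 14 and 16 of the 19 members present had both CD122-T-bet- libraries below both of the other population after centring. Of all genes with a transcript 16.7%, 14.9% and 14.8% did so, and of all genes tested 26.3%, 32.8% and 33.0%. Against CD122 single positive cells 5 of 6 tested were lower, with a median of -2.92, against T-bet int cells 10 of 11 (-5.09, or -4.94 with genes at 0 set to their bound) and against T-bet high cells 14 of 15 (-8.08, or -6.49). All members that tested lower had under 100 transcripts in CD122-T-bet- cells, so these medians hold for genes that the other population expressed. The exception on the other side was Gzma, higher than in CD122 single positive and T-bet int cells and at -0.34 to T-bet high cells. Effector and cytoskeletal genes had 7 of 15, 10 of 15 and 7 of 14 lower and 0 higher in the 3 comparisons (medians -0.84, -1.67 and -1.10). Lgals1, which encodes galectin-1, gave 57.9 and 36.2 CPM in CD122-T-bet- cells against 239.9 and 179, 452 and 609 and 191 and 287, and Anxa2, a membrane-binding annexin, 41.3 and 44.3 against 233 and 210.5, 415 and 376 and 168 and 193. Both were lower than in each other population.

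The remaining lists are given in turn beside the same shares of all genes tested that were past the fold, and some held few tested genes. Maturation genes had 0, 1 and 1 higher and 1 of 9, 1 of 8 and 6 of 9 lower (medians 0.36, -0.14 and -1.96 in the order of the gates); B2m, the light chain of MHC class I, gave 1170.0 and 946 CPM in CD122-T-bet- cells against 4071 and 4279 in T-bet high cells, 3.49-fold lower. Cytokine receptors had 0 higher and 1 of 4, 2 of 5 and 3 of 4 lower, Il2rb each time. Il2rb was selected on through CD122, so its calls are no finding, and the counts and medians of this list include it. The cytokine receptor medians of 0.17 and 0.18 against the first 2 gates became -0.17 and -0.30 without centring, and the former -0.22 with thinned cells and the latter -0.01 without the Gm10800-rich cells. The median against T-bet high cells was -3.89. Interferon-stimulated genes had 1, 0 and 0 higher and 0 of 8, 1 of 8 and 3 of 7 lower (0.39, 0.38 and -0.66, the second -0.11 without centring). Genes of quiescence and mRNA decay had 2, 4 and 1 higher and 1, 1 and 5 lower of 14 (0.09, 0.49 and -0.70, the first -0.25 without centring). Foxp1, a factor of naive T cells, was higher each time at 403 and 344 CPM but fell short of 2-fold in all 3 without centring (0.73, 0.90 and 0.87), and against CD122 single positive cells without the Gm10800-rich cells (0.95) and against T-bet high cells without the low-quality genes (0.99). Without the T-bet high library that stood apart, 0 genes of this list were higher than in T-bet high cells, so Foxp1 lost that call too.

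Translation factors had 0 of 16, 16 and 14 past the fold (medians -0.10, -0.11 and -0.08, of which the last 2 were 0.06 and 0.18 without the Gm10800-rich cells and the second 0.04 with thinned cells), and ribosomal proteins 0 of 71, 1 of 71 and 16 of 68 lower and 0 higher (-0.17, -0.46 and -0.76). Glycolysis genes had 0, 1 and 0 higher and 1, 1 and 0 lower of 10, 10 and 7 (0.10, 0.07 and 0.46, the first 2 -0.24 and -0.42 without centring). The Bcl2 family had 0 of 3 past the fold in each (0.33, 0.72 and 0.27, the first -0.00 without centring). Immediate early genes had 0, 1 and 1 higher and 0, 0 and 1 lower of 6, 6 and 5 (-0.32, -0.02 and -0.63). Gamma delta genes had Sox13 higher each time and 1 of 5, 1 of 4 and 3 of 4 lower (-0.43, -0.85 and -1.94), and of double positive thymocyte genes Cd4 was higher each time and Cd8a lower than in T-bet int cells, of 1, 2 and 1 tested. Most of these CD122-T-bet- medians lay within 1 log2 unit of all genes tested.

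**Figure D4:**
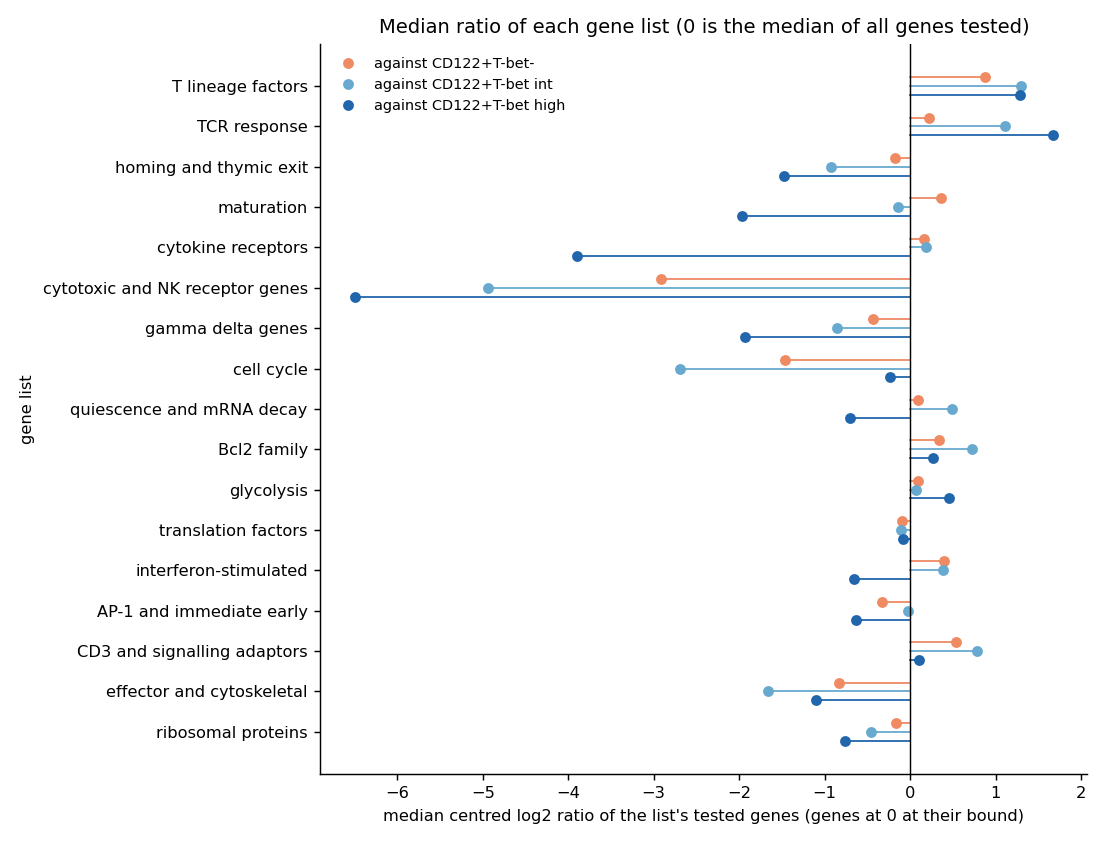
Median centred log2 ratio (horizontal axis) of the tested genes of each list with at least 3 of them (vertical axis), CD122-T-bet- over CD122 single positive cells (orange), T-bet int cells (light blue) and T-bet high cells (dark blue), genes at 0 in 1 population set to their bound. T lineage factors lie above 0 and cytotoxic and effector genes below 0 in all 3; medians near 0 change sign with centring or with the Gm10800-rich cells as the text gives.

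CD122-T-bet- cells differed among themselves. Thinned to 2000 transcripts, 46 of 1350 genes had a variance over 2 times their mean in both libraries, where the median gene had 1.10; with cells scaled and not thinned they were 24. Gm10800 led with 98.4, and 8 of the top 15 were predicted genes. The other 7 were Nrgn, Actb, Ccnd2, Satb1, Nr4a3, Gzma and Sox13. Nrgn had 70.2% of its 363 transcripts in 9 cells, Nr4a3 68.4%, Gzma 87.3% and Sox13 77.5%, whereas Satb1 had 15.1% in its top 9 and was seen in 170 cells. A few cells thus carried most transcripts of the former genes and nearly all cells carried Satb1.

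Gzma was found in 3 cells of library 1 and 22 of library 2, and Sox13 in 11 and 20. Tcrg-C4, a gamma chain constant region with near copies, was in 52 of the 174 cells, in 18 of the 25 with Gzma and in 16 of the 31 with Sox13, and of 15 cells with Cd163l1, a receptor gene of gamma delta T cells, 9 held Gzma. After thinning 6 of 14 cells with Gzma and 5 of 17 with Sox13 held Tcrg-C4, against 27 of all 174. Of 8 cells with Cd163l1 after thinning, 3 held Gzma, and Cd163l1 gave 2 transcripts in the wells of library 1 and 38 in library 2. Before thinning Tcrg-C4 was in 16 cells of library 1 and 36 of library 2, so the base differs between the libraries. Sox13 marks a gamma delta T cell lineage, and Trdc, the delta chain constant region, gave 66.1 and 109 CPM in CD122-T-bet- libraries against 52.9 and 79.3 in CD122 single positive cells. Without thinning, Trdc was in 26 of the 174 cells, in 8 of the 31 with Sox13 and in 7 of the 25 with Gzma. Ccr9 was found in 150 cells, Itm2a in 152, Bcl11b in 145 and Nr4a1 in 111. After thinning, Ccr9 was in 69.5% of CD122-T-bet- cells and 10.8%, 8.19% and 1.36% of the others, and Nr4a1 in 42.5% against 36.6%, 11.7% and 3.40%. Ccr9 therefore set most CD122-T-bet- cells apart and Nr4a1 did not set them apart from CD122 single positive cells.

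The C-myc fl/fl mouse held 120 CD122-T-bet- and 122 CD122 single positive cells, both gates in each of 4 libraries. Of the 121 genes that were higher in the TBGR mouse, 110 had at least 40 transcripts there, and 70 of them (63.6%) had a centred ratio above 0 in all 4 libraries, where 11.1% of all 2533 genes did. These were 36 of 41 predicted or ribosomal genes and 34 of 69 others (49.3%). Of the 162 lower genes, 143 were measured and 61 (42.7%) lay below 0 in all 4, where 10.5% of all genes did. Without centring these counts were 58 and 92. The mice differ in age and genotype, Gm10800 made up 32.3% to 53.2% of CD122-T-bet- transcripts in these libraries, and the median gene before centring stood at -0.28, -1.18, -0.58 and 0.11, the last from 70 genes.

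Ccr9 had ratios of 4.56, 5.24, 2.99 and 3.68 in the 4 libraries, Bcl11b 1.76, 3.83, 2.94 and 2.00, Itm2a 1.94, 3.14, 2.57 and 4.81 and Satb1 0.79, 3.89, 2.61 and 1.26. Cd4 had 1.04, 4.18, 4.02 and 2.99 and Gzma 5.36, 5.49, 5.01 and 3.77. All 6 were above 0 in every library. Il2rb had -3.27, -2.98, -3.85 and -5.87 and Cd7 -3.55, -1.82, -1.80 and -3.85, below 0 in every library. Il2rb encodes CD122, on which the gates of this mouse were sorted too, so its side is no finding. Fcer1g, Ctsw, Nkg7 and Klrb1a of the cytotoxic genes also lay below 0 in all 4. The summed level of 6 cytotoxic genes, Gzma among them, had 1.42, 0.09, 0.14 and -0.42, against -0.96 in the TBGR mouse. Without centring the sum had 1.14, -1.09, -0.44 and -0.31, against -1.30.

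Nr4a1 kept to the TBGR direction in none of the C-myc fl/fl libraries. Cell cycle genes did not keep to the TBGR direction in every library, nor did other list sums after centring. TCR response genes had -0.65, 0.51, -0.83 and -0.99, against 0.25 in the TBGR mouse. The Bcl2 family had -0.69, 1.16, -0.82 and -1.77 against 0.31, and cytokine receptors -0.89, 0.50, -0.83 and -2.09 against 0.10. Without centring these sums were below 0 in both mice and in every C-myc fl/fl library. Mki67 had ratios of -0.67, -2.46, 0.13 and 1.11 and Cenpe 0.04, -1.73, 0.56 and 1.23, and the summed level of 18 cell cycle genes had 0.10, -1.40, 0.10 and 0.04, against -1.27 in the TBGR mouse. Without centring Mki67 had -0.95, -3.64, -0.45 and 1.22, Cenpe -0.24, -2.91, -0.02 and 1.35 and the sum -0.18, -2.58, -0.48 and 0.16, so that only library 4 lay above 0. Nr4a1 had -1.40, -0.40, -1.24 and -1.25, below 0 in all 4 libraries, against 0.81 in the TBGR mouse. A lower cell cycle sum in CD122-T-bet- cells was thus seen in the TBGR mouse and not in every C-myc fl/fl library. Higher Nr4a1 was seen in the TBGR mouse and in none of the C-myc fl/fl libraries. The difference between the mice was not tested.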

How the data were processed

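Single thymic IELPs were sorted into plates, 96 wells were pooled per library, and each CEL-Seq2 library was read as its deposited table. The values are expected counts deposited by the authors, that is transcripts per gene and cell estimated from identifiers of 6 bases. Per the labels and the paper, the authors used bcl2fastq 2.17.1.14 and BWA 0.6.2-r126 with GENCODE VM9 gene models, mapped by strand and dropped reads that fit several loci. Values were rounded to whole transcripts here, and cells with at least 2000 transcripts of nuclear genes were kept, without spike-ins. The paper counts 645 cells with at least 2000 transcripts in the TBGR mouse and 678 were kept here. The paper also removed genes that correlated with Kcnq1ot1, Gm10800 and others, and these genes count toward the minimum here. Without the low-quality genes 154, 185, 169 and 138 cells of the 4 populations reach the same minimum. Kcnq1ot1, which the authors limit to 2% of a cell, reached 0.902% at most.

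Transcripts were summed per library and population and given as CPM. Each log2 ratio had 0.5 transcripts added and was centred on the median gene. Genes with at least 100 transcripts in either population were tested against a fold of 2, with libraries not overlapping. This is a rule of size and no statistical test, since the data were read as 1 mouse per genotype. No paired analysis was possible because no library of the TBGR mouse held 2 populations. Intervals are exact 95% intervals (Poisson for counts, conditional binomial for ratios), cover counting error only, and a count of 0 is read as up to 3 transcripts. Totals per TBGR library ran from 233454 to 775264 transcripts. Cells were sorted singly and no doublet caller was run. Of the C-myc fl/fl mouse, genes with at least 40 transcripts were read.

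Named genes are the 6 markers, the gate genes, the 10 largest ratios per direction and comparison, the 15 most variable genes and members of 18 gene lists. The members and lists were chosen with earlier results of these data known. Promoter windows and gene positions came from RefSeq and GENCODE for GRCm38. Alternatives changed centring, minimum counts, fold, thinning, rounding, averaging, overlap, libraries, Gm10800-rich cells and low-quality genes. Libraries of other genotypes were not used. Python 3.11.15, NumPy 2.4.6, pandas 2.3.3, SciPy 1.17.1 and matplotlib 3.10.9 were used, and the arithmetic was tested on simulated data.

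The main limits are the reading as 1 mouse per genotype, the large Gm10800 share of CD122-T-bet- cells, whose source was not tested, and the 1 library of T-bet high cells that stood apart. Low counts of a gene in a cell do not mean its absence. Differences between populations hold all that differed between their libraries, since each population was in libraries of its own, and library and population cannot be told apart within the TBGR mouse. The C-myc fl/fl mouse differs in age and genotype.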

Additional observations from a re-analysis of the deposited data

Results flagged for a closer look

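Among 38 groups of values looked at for a member far from the rest, 3 had one, and about 1 in 20 groups would have one by chance. Library 2 of T-bet high cells kept 55 cells, the fewest of the 8 TBGR libraries, and its barcodes without a cell held 11858 transcripts, the most. Numbers of genes past the fold that rest on it, and the list median whose sign it changed, are given with and without it. Without it 4 of 9 homing genes tested were higher than in T-bet high cells and 5 lower. Cytotoxic genes had 12 of 13 lower and effector genes 6 of 12. Genes of quiescence and mRNA decay had 0 higher and 4 lower of 12, and immediate early genes 0 and 1 of 3 (median -0.25). In the C-myc fl/fl mouse the Nr4a1 log2 ratio of library 2 was -0.40, nearer to 0 than in the other 3 libraries. Of 292 genes compared between the mice, 2 had opposite signs after centring: Nr4a1, at 0.81 in the TBGR mouse and below 0 in all 4 C-myc fl/fl libraries, and Pcmt1, at -1.24 and above 0 in all 4 after centring but at -0.67 in library 2 without it. Without centring 4 genes that were higher in the TBGR mouse lay below 0 in all 4 libraries. These were Cd52, Gimap4, Prkcq and Samhd1. None of these differences was tested.

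Barcodes without a cell in the CD122-T-bet- libraries held 7142 transcripts, a median of 24 per barcode, or 0.717% of the transcripts in wells. They were not analysed further.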

How the results depend on the processing

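Of 152 recomputed results 48 moved, a count by going beyond 1.5 times its value. Of 472 ratios of named genes, 303 of them past the fold, 0 calls reversed, but 211 ratios moved and 29 calls fell under 2-fold without centring, 122 and 13 with thinning, 58 and 14 with averaged shares, and 60 and 16 without cells over 25% Gm10800; leaving out 1 library moved 467 of 1888 and took 74 of 1212 calls under it. Pairs below are genes higher and lower, against CD122 single positive cells, T-bet int cells, T-bet high cells and each of these. Without centring they were 69 and 294, 132 and 497, 118 and 277, and 42 and 62, because a shared shift enters every ratio. With at least 50 transcripts they were 219 and 366, 455 and 458, and 296 and 392, with 75 lower than each; with at least 200, 74 and 67, 111 and 93, and 75 and 101, with 12 lower than each. At 1.5-fold they were 231 and 341, 351 and 425, 275 and 386, and 104 and 73, and at 3-fold 46 and 71, 114 and 111, 72 and 125, and 26 and 19; looser and stricter rules change counts by construction. Leaving out 1 library gave 80 to 126 and 76 to 193, 159 to 187 and 144 to 235, 106 to 163 and 151 to 179, and 39 to 77 and 15 to 38. Results moved without CD122-T-bet- library 2 (80, and 39 higher than each), CD122 single positive library 1 (76, and 22 lower than each) or 2 (88), and T-bet high library 1 (15 lower than each) or 2 (25), with the number of genes tested changed as well. Chosen after seeing the data, leaving out cells over 25% Gm10800 gave 59 and 150, 142 and 207, 117 and 173, and 31 and 37, of which 59, 142 and 31 moved; the cause was not tested. Leaving out low-quality genes gave 96 and 160, 202 and 206, 143 and 204, and 56 and 36, none beyond this. In the C-myc fl/fl mouse 131 of 253 genes kept their side in all 4 libraries, 150 without centring and 142 to 152 with 1 library left out. Genes of variance over 2 times the mean numbered 24 with cells scaled and not thinned and 104 in library 2 alone. Minimum transcripts per cell, thinning (138 and 203, 240 and 256, 157 and 249, and 50 and 45), averaging, rounding and overlap kept counts within 1.5 times.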
